A study of Rattus norvegicus with 24 samples.

Results

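The wild-type sciatic nerve was followed over the step from embryonic day 21 (E21) to postnatal day 6 (P6), the days in which its Schwann cells begin to myelinate. The members were the 4 E21 and 4 P6 libraries that the labels give as wild type, 8 of the 24 libraries of the series. The series also holds Pmp22 transgenic (Tg) nerve, a rat model of Charcot-Marie-Tooth disease type 1A (CMT1A), and nerve of both genotypes at postnatal day 18 (P18), again in groups of 4. The animals of both ages are labelled wild type (Wt), with no transgene and no treatment named. The Tg animals are of the line SD-Tg(Pmp22)Kan, which carries Pmp22 in excess of its own copies. The labels give neither the sex nor the number of animals behind a library. The epineurium, the outer sheath of the nerve, was taken off before RNA extraction. PolyA RNA of whole nerve was read, so that every value mixes Schwann cells, fibroblasts, vessels and immune cells, and fewer cells of a type and less RNA per cell cannot be told apart.

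Before birth most Schwann cells of the sciatic nerve are still immature: they divide, and groups of them enclose bundles of axons. Around birth a Schwann cell that has taken a single large axon leaves the cell cycle, switches on the transcription factor Egr2 and wraps the axon in a multilayered membrane. That membrane is made of a few abundant proteins, of cholesterol, which the cell synthesizes itself, of galactolipids and of phospholipids, including plasmalogens.

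Total counts ran from 12513822 to 25164842 in the E21 libraries and from 12699291 to 24875636 in the P6 libraries. Levels are given as normalized CPM, counts scaled by library size and TMM factor, and the 4 values of an age are always in the order of the replicate numbers. The makeup of the libraries is given first. The 6 proteins of compact myelin took 0.533%, 0.494%, 0.503% and 0.475% of the counts at E21 and 11.9%, 12.6%, 12.6% and 12.2% at P6. The E21 libraries also held transcripts of other tissues. Skeletal muscle markers summed to 43.6, 2667, 64.2 and 4037 normalized CPM at E21, so that E21 replicates 2 and 4 stood apart, and to 296, 166, 82.6 and 75.7 at P6. Erythroid markers summed to 42996, 34488, 12486 and 16282 at E21 and to 1476, 1782, 1143 and 1982 at P6. P6 replicate 1 was the only one of the 8 libraries with 0 counts of the Y-linked gene Eif2s3y, and the other 7 had 448 to 2157. In normalized CPM Eif2s3y had 102, 127, 32.4 and 60.4 at E21 and 0, 40.5, 82.4 and 79.9 at P6, so the other libraries also differed.

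**Figure D1:**
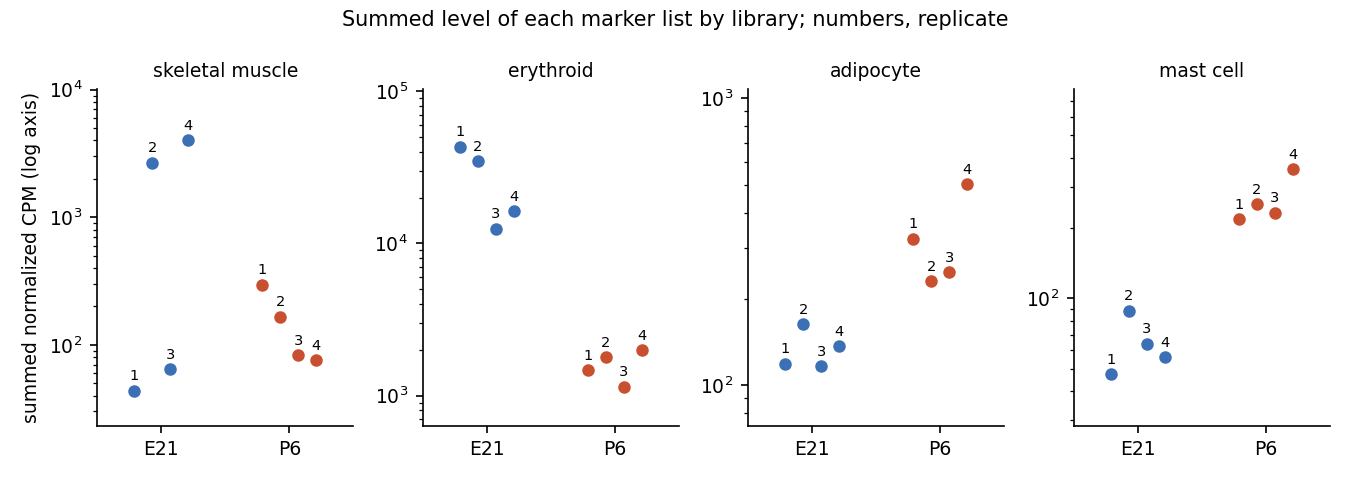
Summed normalized CPM (log axis) of the marker lists for skeletal muscle, erythroid cells, adipocytes and mast cells in each wild-type library of E21 and P6, with the replicate number over each point. Muscle markers reached 2667 and 4037 in E21 replicates 2 and 4 and lay between 43.6 and 296 in the other 6 of these libraries, erythroid markers were higher in all 4 E21 libraries, and adipocyte and mast cell markers were higher in all 4 P6 libraries.

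Of 15951 genes tested, 8959 were called (56.2%), 4448 of them higher at P6 (27.9%) and 4511 lower (28.3%). A call is an adjusted p under 0.05, where p comes from the quasi-likelihood F test of edgeR and is adjusted by the Benjamini-Hochberg method over all tested genes, as is every adjusted p below. With edgeR's test against a 2-fold change (glmTreat), 1453 genes were called (9.11%), 860 higher (5.39%) and 593 lower (3.72%). The 4 libraries of each age did not overlap in 8489 genes (53.2%), of which 4139 were higher at P6 (25.9%) and 4350 lower (27.3%). These percentages are the background against which the counts of each gene list below are read, and the median log2 fold change over all of them was 0.01. The p-values rest on the spread between samples within the 6 groups of the fit.

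Genes of compact myelin rose together. All 6 were higher at P6, all 6 past 2-fold and without overlap, and their median log2 fold change was 3.97. Pmp22 (ENSRNOG00000003338), a membrane protein of compact myelin and the gene duplicated in CMT1A, had 1392, 1309, 1261 and 1259.8 normalized CPM at E21 and 22924, 23991, 22820.4 and 22671 at P6, a log2 fold change of 4.15 (standard error 0.08, edgeR, adjusted p = 4.2e-21). Its 4 P6 libraries lay close together and far above every E21 library. Mbp (ENSRNOG00000016516), which holds the cytoplasmic faces of the membrane together, had 737, 612, 551 and 563 at E21 and 14737, 16939, 18853 and 17302 at P6, a log2 fold change of 4.78 (standard error 0.13, edgeR, adjusted p = 1.4e-18). Pmp2, a fatty acid-binding protein of the same membrane, rose from 137 ± 13.4 to 1909.6 ± 99.5 normalized CPM (SD, 4 libraries each), a log2 fold change of 3.80 (edgeR, adjusted p = 2.3e-14). Mal, a proteolipid of the same membrane, rose by 3.03 on the log2 scale.

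**Figure D2:**
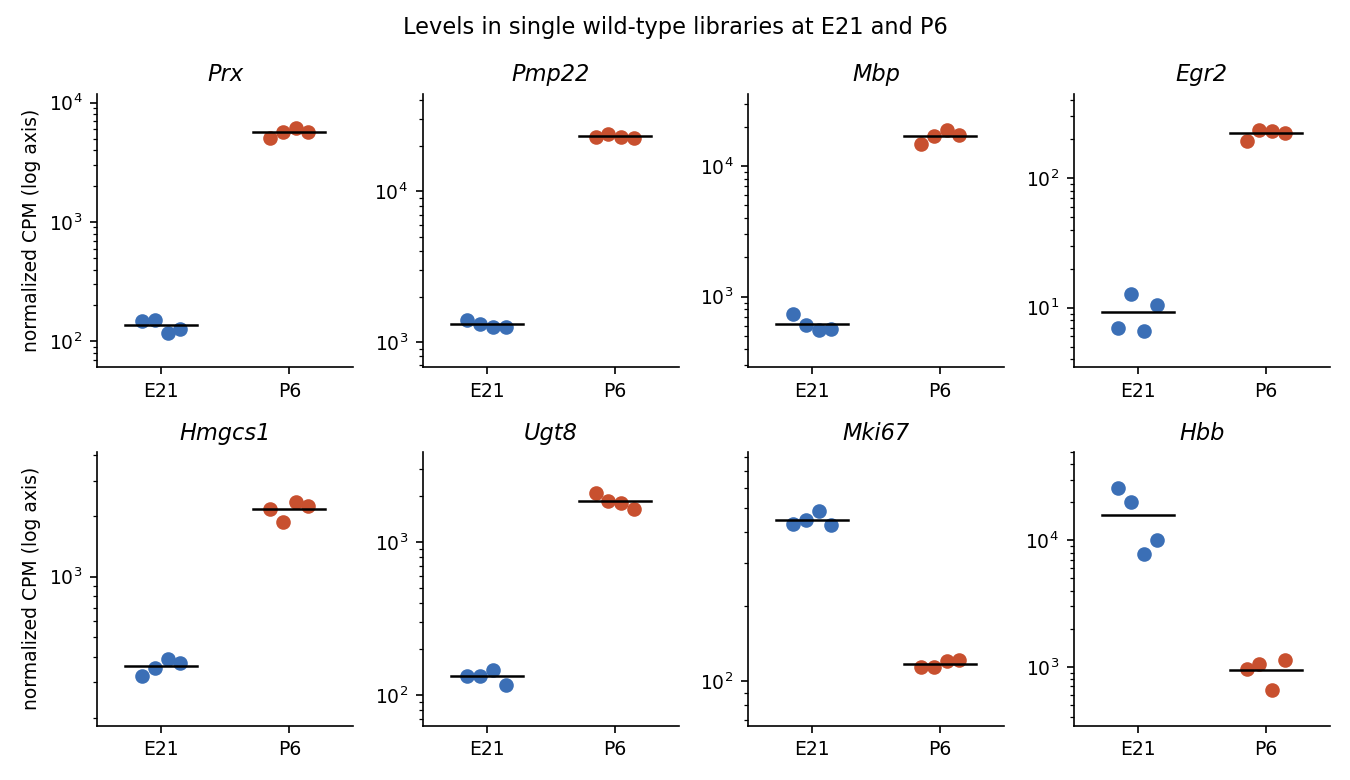
Normalized CPM (log axis) of 8 genes in each of the 4 E21 and 4 P6 wild-type libraries. Points are libraries and bars are means. No P6 library overlapped an E21 library in any of the 8 genes: Prx, Pmp22, Mbp, Egr2, Hmgcs1 and Ugt8 were higher at P6, and Mki67 and Hbb were lower.

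Genes of non-compact myelin and of the contacts between Schwann cell and axon included the steepest rises of the myelin lists. Of 22 genes, 19 were higher at P6, 1 was lower and 14 were higher past 2-fold, with a median log2 fold change of 2.81. Ncmap, a glycoprotein of non-compact myelin, had 2, 3, 1 and 0 counts in the E21 libraries and 1350, 3318, 2584 and 3360 in the P6 libraries, which is 0.0889 ± 0.0736 against 144 ± 38.0 normalized CPM (SD, n = 4 each). Nfasc, whose products organize the node of Ranvier and the paranodal junction, had 2.50, 1.53, 1.95 and 1.50 at E21 and 369, 383, 358 and 325 at P6, a log2 fold change of 7.60 (standard error 0.13, edgeR, adjusted p = 2.0e-21). Both genes were below 3 in every E21 library and above 100 in every P6 library. Drp2, which with periaxin links the outer myelin surface to the basal lamina, had 4.73, 3.89, 4.34 and 3.32 and then 534, 528, 498 and 473, a log2 fold change of 6.98 (standard error 0.13, edgeR, adjusted p = 4.2e-21). Gjb1, the gap junction protein connexin 32, had 0.425, 1.003, 0.361 and 0.621 and then 61.0, 64.6, 67.3 and 62.4, a log2 fold change of 6.69 (standard error 0.20, edgeR, adjusted p = 1.1e-17). The P6 level was 126-fold that at E21 for Drp2 and 103-fold for Gjb1. Cldn19, the claudin of the autotypic tight junctions of Schwann cells, rose by 6.25, Prx (periaxin) by 5.37, Gldn (gliomedin, a nodal organizer) by 5.17, Cdh1 (E-cadherin) by 5.01 and Mag (myelin-associated glycoprotein) by 3.94 on the log2 scale.

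Other members of the list rose less. Cnp, a protein of uncompacted cytoplasmic channels, went from 662 ± 70.9 to 1795 ± 109, a log2 fold change of 1.44 (edgeR, adjusted p = 1.0e-12). The laminin receptor genes Dag1, Itga6 and Itgb4 rose by 0.98, 0.94 and 0.93, and Cadm4, the Schwann cell partner of axonal adhesion molecules, by 0.58. The single gene of the list that fell was Epb41l3, a membrane skeleton protein known from paranodes, with 416, 419, 391 and 389 at E21 and 131, 135, 134 and 126 at P6. It was lower in each P6 library than in any E21 library, a log2 fold change of -1.62 (standard error 0.06, edgeR, adjusted p = 2.4e-16).

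Transcription factors that drive myelination did not move as 1 block. Of 13 tested, 7 were higher, 5 were lower and 2 were higher past 2-fold, with a median log2 fold change of 0.39. Egr2 (ENSRNOG00000000640), the factor required for the myelinating state, had 6.96, 12.7, 6.65 and 10.5 normalized CPM at E21 and 194, 235, 233 and 223 at P6. The lowest P6 library lay far above the highest E21 library, a log2 fold change of 4.57 (standard error 0.17, edgeR, adjusted p = 7.0e-16). Within E21 it was higher in replicates 2 and 4, the libraries with muscle transcripts, whose part in these values was not tested. Pou3f2, a POU factor expressed in promyelinating cells, had 4.14, 4.48, 4.70 and 4.60 and then 13.2, 17.3, 16.8 and 16.9, a log2 fold change of 1.84 (standard error 0.16, edgeR, adjusted p = 1.2e-09). Sox10, the lineage factor of Schwann cells, was already present, with 216, 209.8, 159 and 166 at E21 and 224, 292, 317 and 310.3 at P6, and rose by only 0.61 (edgeR, adjusted p = 0.0012) on the log2 scale. Srebf1, which drives fatty acid synthesis genes, rose by 1.09, with values at P6 of 53.5, 59.2, 87.7 and 87.9 that were more spread than its 34.9, 36.5, 29.4 and 35.1 at E21. Srebf2, which drives cholesterol genes, rose by 0.39 (edgeR, adjusted p = 2.3e-04), Tead1 by 0.74 and Nab1, a cofactor of Egr2, by 0.42. The 5 that fell did so by small amounts, with log2 fold changes of -0.36 in Nfatc4, -0.30 in Yy1, -0.26 in Yap1, -0.24 in Nab2 and -0.22 in Wwtr1. The ages overlapped in Nfatc4, Nab2 and Wwtr1, and only 2 or 3 genes of the list were called lower in the fit to the 12 Wt libraries, with upper quartile factors, with no filter on low counts, with the replicate block, without both E21 libraries with muscle transcripts, and without E21 replicate 1 or 2 or P6 replicate 1, 2 or 3. Pou3f1 was not analysed here.

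Genes of the immature Schwann cell fell. Of 15 tested, 12 were lower at P6 and 1 was higher, with 4 lower past 2-fold and a median log2 fold change of -0.94. Ngfr (ENSRNOG00000005392), the p75 neurotrophin receptor, had 346, 371, 298 and 328 at E21 and 98.9, 126, 116 and 102 at P6. Every P6 library was below every E21 library, a log2 fold change of -1.60 (standard error 0.10, edgeR, adjusted p = 4.2e-12). The adhesion molecules Ncam1, L1cam and Cdh2 (N-cadherin), by which immature and non-myelinating Schwann cells hold to axons and to each other, fell by similar amounts. Ncam1 had 295, 272, 302 and 291 and then 92.2, 96.8, 90.1 and 77.8, a log2 fold change of -1.70 (standard error 0.08, edgeR, adjusted p = 2.0e-14). L1cam changed by -1.35 (edgeR, adjusted p = 4.4e-12) and Cdh2 by -1.59 (edgeR, adjusted p = 1.0e-12) on the log2 scale. The inhibitors of differentiation Id2 and Id4 changed by -0.67 and -0.81, Egr1 and Egr3 by -1.13 and -0.89, Gap43 by -1.17, Gfap by -0.95 and the Notch target Hey1 by -0.94.

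The most studied inhibitors of myelination gave no call. Jun (ENSRNOG00000026293) had 74.3, 70.2, 69.1 and 75.8 normalized CPM at E21 and 61.2, 77.8, 84.1 and 70.4 at P6. The ages overlapped, and the log2 fold change was 0.02 (standard error 0.11, edgeR, adjusted p = 0.890). Sox2 (ENSRNOG00000012199) had 31.1, 37.1, 30.1 and 25.5 and then 25.8, 27.4, 33.1 and 32.3, a log2 fold change of -0.06 (standard error 0.14, edgeR, adjusted p = 0.743). The missing call does not show that the levels were equal. From P6 to P18 the log2 fold changes of the same genes in Wt nerve were -0.59 for Jun and -1.12 for Sox2, a comparison that shares the 4 P6 libraries. The single gene of the list that rose was Dhh, the hedgehog signal by which Schwann cells organize the perineurium, from 119 ± 8.79 to 172 ± 12.4, a log2 fold change of 0.53 (edgeR, adjusted p = 3.3e-04).

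Signals from the axon and the matrix, and their receptors, changed less than the genes above, with 3 of 20 tested higher, 10 lower, none past 2-fold and a median log2 fold change of -0.19. Erbb3, the neuregulin receptor subunit of Schwann cells, rose from 618, 609, 649 and 563 to 969.8, 982, 990.2 and 966, a log2 fold change of 0.68 (standard error 0.06, edgeR, adjusted p = 1.9e-09). Its partner Erbb2 had a log2 fold change of 0.10 that was not called. Adgrg6, the adhesion receptor needed to start myelination, fell from 267, 282, 293 and 249 to 173, 162, 164 and 147, a log2 fold change of -0.76 (standard error 0.09, edgeR, adjusted p = 1.2e-07). Laminin chains moved in opposite directions: Lama2 rose by 0.39 (edgeR, adjusted p = 1.3e-04) and Lama4 fell, with -0.77 (edgeR, adjusted p = 1.6e-09). Igf1, Igf1r and the neurotrophin receptor gene Ntrk3 had log2 fold changes of -0.74, -0.89 and -0.998. Nrg1 was low, at 3.25 ± 0.275 and 2.29 ± 0.305 (SD, n = 4 each), and its lower call was lost without P6 replicate 1 or without P6 replicate 3.

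**Figure D3:**
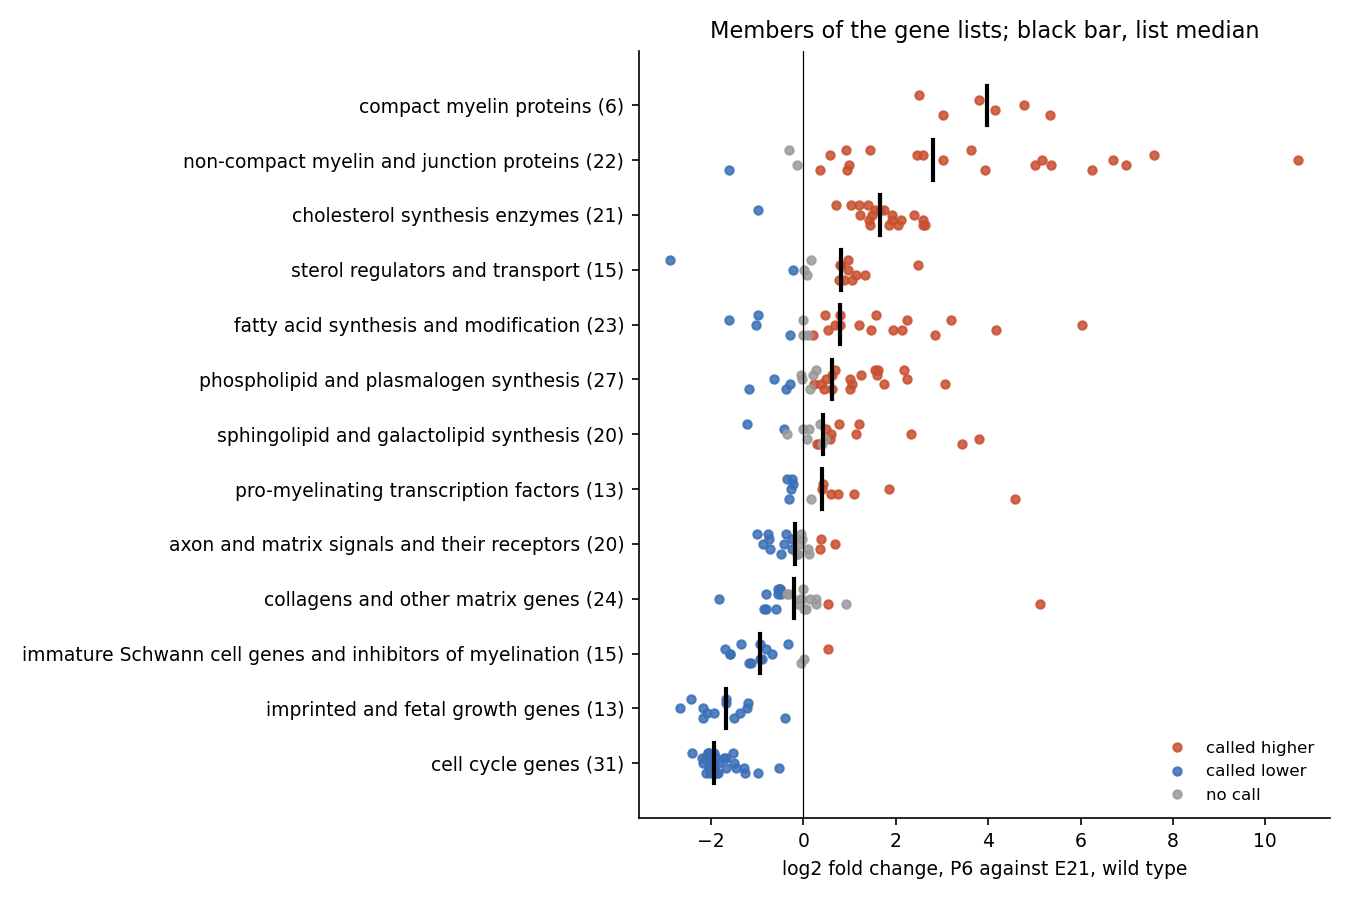
Log2 fold change from E21 to P6 of every tested member of 13 gene lists, with the number tested in brackets. Points are genes, coloured by whether the test called them higher or lower at P6, and the black bar is the list median. Compact myelin genes lay wholly to the right, and junction and cholesterol genes lay mostly to the right, with Epb41l3 and Lbr called lower. Cell cycle and fetal growth genes lay wholly to the left.

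Cholesterol synthesis rose along almost the whole pathway. Of 21 enzymes, 20 were higher at P6, 18 of them past 2-fold, and 1 was lower, with a median log2 fold change of 1.66. The 20 did not overlap between the ages. Hmgcs1 (ENSRNOG00000016552), which makes HMG-CoA, had 322, 352, 390.3 and 371 normalized CPM at E21 and 2178, 1862, 2351 and 2234 at P6, a log2 fold change of 2.59 (standard error 0.10, edgeR, adjusted p = 8.7e-16). The highest folds were at Mvd, which ends the mevalonate branch, with 2.62, at Lss, which closes the sterol rings, with 2.60, and at Hmgcs1. The smallest rise was that of Sqle, the squalene epoxidase, from 144 ± 11.5 to 233 ± 15.9, a log2 fold change of 0.69 (edgeR, adjusted p = 8.0e-08). Dhcr7, at the end of the pathway, rose by 1.21 on the log2 scale.

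The enzyme that fell shares its reaction with another that rose. Tm7sf2 and Lbr both reduce the C14 double bond of the sterol, the former as a dedicated reductase and the latter also as a receptor of the nuclear lamina. Tm7sf2 had 13.5, 12.4, 9.75 and 13.1 at E21 and 56.9, 60.7, 69.1 and 70.8 at P6, a log2 fold change of 2.39 (standard error 0.10, edgeR, adjusted p = 3.3e-15). Lbr had 44.1, 41.4, 47.6 and 42.8 and then 23.8, 20.9, 20.5 and 24.2, a log2 fold change of -0.98 (standard error 0.09, edgeR, adjusted p = 4.8e-09). Neither gene overlapped between the ages.

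**Figure D4:**
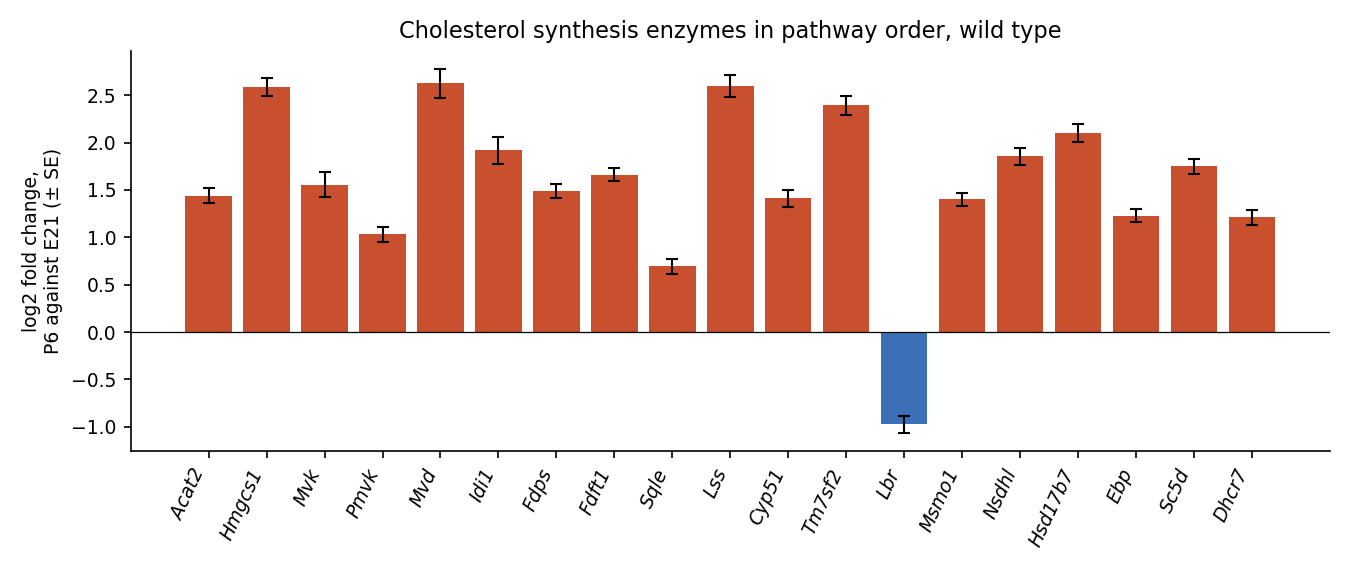
Log2 fold change from E21 to P6 in wild-type nerve of cholesterol synthesis enzymes in pathway order, with standard errors. Bars above 0 are enzymes higher at P6: each enzyme drawn was higher except Lbr, which was lower.

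Promoters of these enzymes were set beside those of the cell cycle genes, which moved the other way, because both groups moved nearly as a block. RefSeq sequences (build GRCr8) of the 250 bases before the start of the gene were found for 16 of the 21 enzymes and 22 of 31 cell cycle genes. On either strand, the letters CCAAT, the core of the box bound by the factor NF-Y, stood in 13 of 16 enzyme promoters (81.2%) and in 15 of 22 cell cycle promoters (68.2%), against 34.3% of all 27457 promoters and 34.9% of those of genes tested. The letters TTTGAA, the core of the cell cycle homology region, stood on either strand in 3 of 16 (18.8%) and 6 of 22 (27.3%), against 16.0% of all and 10.3% of the 10563 promoters of genes tested. The letters TCACNCCAC, a core of the sterol regulatory element, stood on either strand in 0 of 16 and 0.976% of all, which says only that these letters are not in these windows. Each match is a description of letters and not of a bound site. The promoters of the enzymes Hmgcs1 and Lss and of the cell cycle genes Mki67 and Ccnb1 are shown 5′ to 3′ on the strand of the gene, with CCAAT or its complement ATTGG and TTTGAA in capitals. They lie at chr2:53382054-53382303 (plus strand), chr20:12118231-12118480, chr1:199952594-199952843 and chr2:33655226-33655475 (minus strand).
Hmgcs1: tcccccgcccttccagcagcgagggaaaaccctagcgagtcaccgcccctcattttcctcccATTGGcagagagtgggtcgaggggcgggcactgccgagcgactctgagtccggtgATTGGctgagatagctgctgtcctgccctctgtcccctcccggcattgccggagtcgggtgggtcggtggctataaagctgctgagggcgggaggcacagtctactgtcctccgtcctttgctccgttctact
Lss: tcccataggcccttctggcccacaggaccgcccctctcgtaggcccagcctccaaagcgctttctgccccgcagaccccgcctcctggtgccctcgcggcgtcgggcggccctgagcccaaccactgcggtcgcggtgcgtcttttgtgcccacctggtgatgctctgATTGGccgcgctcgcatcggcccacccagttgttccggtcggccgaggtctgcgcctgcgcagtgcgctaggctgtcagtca
Mki67: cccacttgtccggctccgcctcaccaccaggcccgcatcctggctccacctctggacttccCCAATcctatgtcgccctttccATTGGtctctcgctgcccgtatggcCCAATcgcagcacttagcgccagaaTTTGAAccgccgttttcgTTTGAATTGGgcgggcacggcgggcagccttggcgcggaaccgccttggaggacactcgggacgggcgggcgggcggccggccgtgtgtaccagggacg
Ccnb1: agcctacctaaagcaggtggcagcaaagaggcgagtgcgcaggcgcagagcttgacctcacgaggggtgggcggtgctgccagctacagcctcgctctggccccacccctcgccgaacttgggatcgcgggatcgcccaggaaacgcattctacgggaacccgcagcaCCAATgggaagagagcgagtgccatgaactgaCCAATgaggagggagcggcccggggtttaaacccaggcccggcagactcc
CCAAT matched 2 times in Hmgcs1, 1 time in Lss, 4 times in Mki67 and 2 times in Ccnb1. TTTGAA matched 2 times in Mki67, 1 of them sharing bases with a reversed CCAAT, and in none of the other promoters shown.

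Genes that regulate sterols or carry them rose less evenly, with 10 of 15 tested higher, 2 lower and a median log2 fold change of 0.82. Apoe, the lipoprotein of lipid transfer, had 16.7, 16.7, 11.6 and 13.7 at E21 and 52.6, 73.1, 106 and 97.5 at P6, a log2 fold change of 2.49 (standard error 0.20, edgeR, adjusted p = 3.1e-10). Abca1, the cholesterol exporter, rose by 1.34, the feedback protein Insig1 by 1.13, the carrier Stard4 by 1.05 and Scap, the escort of the SREBP factors, by 0.76. Insig2 stayed without a call, at 0.01. The lower call of the esterifying enzyme Soat1 was lost in most fits without a single library.

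Fatty acid synthesis rose for most members and fell for some. Of 23 tested, 16 were higher, 4 were lower and 8 were higher past 2-fold, with a median log2 fold change of 0.78. Fasn (ENSRNOG00000045636), the fatty acid synthase, had 219, 215, 219.9 and 223 at E21 and 562, 597, 705 and 732 at P6, a log2 fold change of 1.57 (standard error 0.10, edgeR, adjusted p = 1.4e-11). Acaca, which supplies its malonyl-CoA, rose by 2.25 (edgeR, adjusted p = 1.9e-14). Genes of enzymes that make acetyl-CoA did not move together. Acss2, which makes it from acetate, went from 22.7, 25.1, 21.2 and 23.5 to 99.9, 92.7, 107 and 109.7, a log2 fold change of 2.14 (standard error 0.08, edgeR, adjusted p = 5.5e-16). Acly, which makes it from citrate, had 685, 680.5, 683 and 675 and 686, 661, 669 and 684, with a log2 fold change of -0.01 and overlapping ages. Me1, a source of NADPH, fell, with a log2 fold change of -1.02 (edgeR, adjusted p = 3.0e-04). The stearoyl-CoA desaturases Scd1 and Scd2 rose by 2.86 and 1.47, and Scd1 was highest at P6 in replicate 4, with 71.4, 61.1, 98.5 and 163 in order, the library that also held the most adipocyte transcripts. The part of that tissue in the Scd1 value was not tested.

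The elongases, which lengthen fatty acids, changed in opposite directions. Elovl7 had 0.690, 1.06, 1.59 and 1.17 at E21 and 83.2, 71.5, 73.8 and 62.7 at P6, a log2 fold change of 6.03 (standard error 0.20, edgeR, adjusted p = 7.1e-17). Elovl1, an elongase of saturated very long chains, rose by 1.21 (edgeR, adjusted p = 5.5e-14). Elovl6 rose by 1.94 (edgeR, adjusted p = 8.1e-04), at no more than 3.19 normalized CPM in any of the 8 libraries. Elovl2 had 31.4, 33.9, 35.8 and 25.5 and then 7.70, 7.63, 11.8 and 14.2, a log2 fold change of -1.61 (standard error 0.26, edgeR, adjusted p = 1.6e-05). Elovl2, Elovl4 and Elovl5, which act on polyunsaturated or the longest chains, all fell, with a log2 fold change of -0.98 (edgeR, adjusted p = 8.9e-05) for Elovl4 and of -0.28 (edgeR, adjusted p = 0.0013) for Elovl5. Hacd4, a dehydratase of the same elongation cycle, rose by 3.20 and the desaturase gene Fads2 by 0.78.

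The galactolipid genes Ugt8 and Fa2h were 13.9-fold and 10.8-fold higher at P6, while much of the general sphingolipid pathway moved little. Of 20 tested, 11 were higher, 2 were lower and 4 were higher past 2-fold, with a median log2 fold change of 0.43. Ugt8 (ENSRNOG00000009345), which makes galactosylceramide, had 133, 134, 146 and 117 at E21 and 2087, 1843, 1804 and 1637 at P6, a log2 fold change of 3.79 (standard error 0.12, edgeR, adjusted p = 2.7e-17). Fa2h (ENSRNOG00000018950), which adds the 2-hydroxyl group typical of myelin sphingolipids, had 45.0, 42.3, 40.4 and 38.0 and then 419, 467, 435 and 469, a log2 fold change of 3.43 (standard error 0.07, edgeR, adjusted p = 9.3e-21). Both enzymes separated the ages without overlap. Gal3st1, which makes sulfatide, rose by 2.32 (edgeR, adjusted p = 6.3e-10), and Cers2, the ceramide synthase of very long chains, by 1.19 (edgeR, adjusted p = 2.0e-15). Ugcg, which makes glucosylceramide and so draws on the same ceramide, fell, with a log2 fold change of -0.43 (edgeR, adjusted p = 2.2e-06). Smpd3, a neutral sphingomyelinase, changed by -1.23.

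Phospholipid and plasmalogen enzymes were higher in 18 of 27 and lower in 4, with 8 higher past 2-fold and a median log2 fold change of 0.61. The furthest change was in Tmem189, the desaturase that makes the vinyl ether bond of plasmalogens, with 35.6, 34.9, 31.0 and 34.5 at E21 and 269, 334, 303 and 234 at P6, a log2 fold change of 3.07 (standard error 0.13, edgeR, adjusted p = 6.0e-15). Agps, which makes the ether bond in an earlier step, rose by 1.54 (edgeR, adjusted p = 1.9e-08). In the ethanolamine branch, the kinase Etnk2 rose by 2.24, Pcyt2 by 1.24 and Ept1 (Selenoi), the last enzyme, by 1.62. In the choline branch Pcyt1b rose by 1.59, whereas the kinase Chka and Pcyt1a, at 0.14 and -0.03, were not called. Cept1, which carries out the last step in both branches, fell, with a log2 fold change of -0.39 (edgeR, adjusted p = 0.0014). The lipins, phosphatidate phosphatases, diverged: Lpin1 rose by 2.18 (edgeR, adjusted p = 1.0e-09) and Lpin3 by 1.73, and Lpin2 had 68.1, 76.6, 72.8 and 63.4 at E21 and 30.2, 32.7, 31.9 and 29.5 at P6, a log2 fold change of -1.18 (standard error 0.07, edgeR, adjusted p = 5.3e-12).

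Among fatty acid-binding proteins the myelin protein Pmp2 rose and 2 others fell. Fabp5 had 509, 486, 439 and 435 at E21 and 146, 140.3, 154 and 151 at P6, a log2 fold change of -1.66 (standard error 0.08, edgeR, adjusted p = 4.3e-14). Fabp3, also a muscle protein, had 3.13, 4.66, 3.61 and 5.22 and then 1.25, 1.06, 0.683 and 0.492, a log2 fold change of -2.27 (edgeR, adjusted p = 2.0e-05), and was higher in the E21 libraries with muscle transcripts than in the other E21 libraries. Fabp4, an adipocyte and endothelial protein, had 129.6, 77.5, 97.2 and 234 at P6 against 85.3, 99.4, 85.3 and 88.7 at E21 and was not called. Of 19 fatty acid oxidation genes tested, 9 were higher and 3 lower, with a median log2 fold change of 0.35. Cpt1b and Cpt1a, which bring fatty acids into mitochondria, rose by 1.52 (edgeR, adjusted p = 2.1e-05) and 0.70, and Angptl4 and the receptor Ppara by 1.13 and 1.13. Angptl4 had 5.68, 5.35, 6.22 and 9.60 at P6, highest in replicate 4, which held the most adipocyte transcripts. The part of that tissue in the Angptl4 value was not tested. The 3 that fell were Cpt1c, Acadl and Hadhb, with log2 fold changes of -0.46, -0.32 and -0.27.

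**Figure D5:**
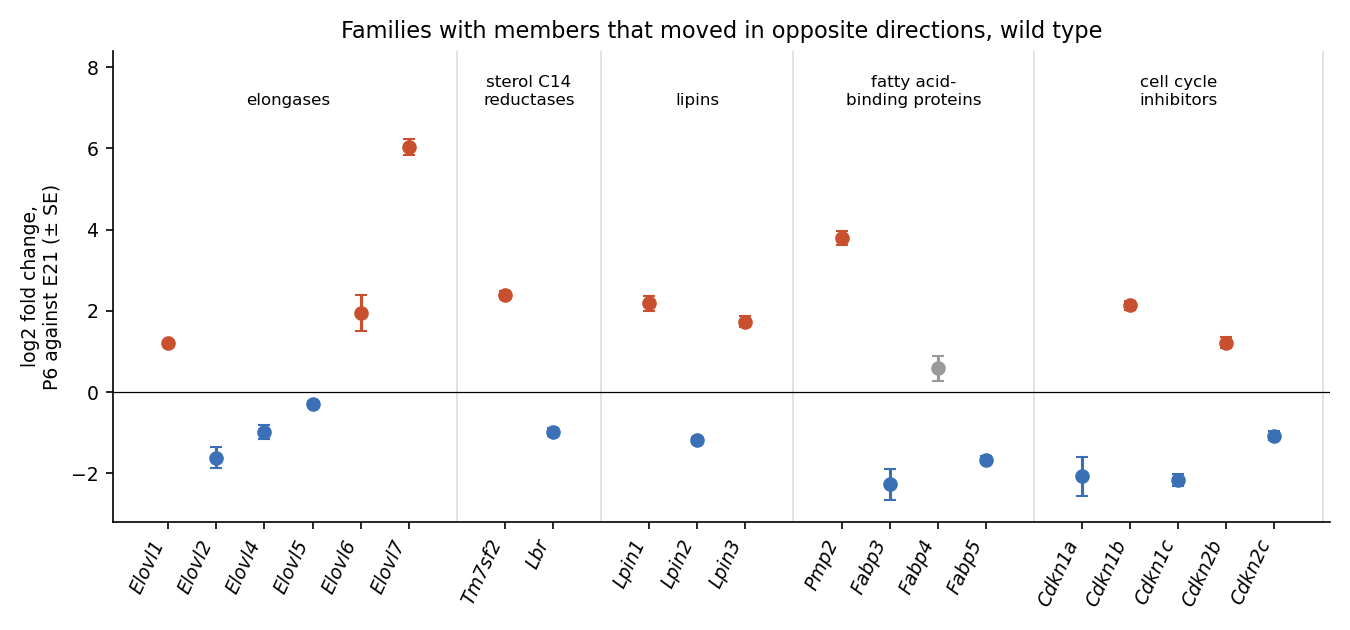
Log2 fold change from E21 to P6 with standard errors for families in which some members rose and others fell: elongases, sterol C14 reductases, lipins, fatty acid-binding proteins and cell cycle inhibitors. Red points were called higher, blue points lower and the grey point, Fabp4, was not called. The families were picked after the values were seen.

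Cell cycle genes fell as a block. All 31 tested were lower at P6, 29 of them past 2-fold and all without overlap, with a median log2 fold change of -1.93. Mki67 (ENSRNOG00000028137), a marker of dividing cells, had 428, 444, 486 and 426 normalized CPM at E21 and 114, 114, 120.1 and 122 at P6. The values within an age were close together, a log2 fold change of -1.92 (standard error 0.08, edgeR, adjusted p = 3.7e-15). The deepest fall was that of Ccne1, the cyclin of the G1 to S transition, with 44.2, 51.3, 44.6 and 45.8 and then 9.26, 8.29, 8.42 and 8.86, a log2 fold change of -2.42 (standard error 0.17, edgeR, adjusted p = 2.5e-11). Ccnb1, Ccna2 and Bub1, which act in mitosis or S phase, changed by -2.21, -2.17 and -2.12, Top2a by -2.04 and the replication clamp gene Pcna by -1.27. The exceptions to a 2-fold fall were Aurka, at -0.99, and Ccnd1, a cyclin that answers to growth signals, with 422, 411, 412 and 389 and then 265, 274, 301 and 299, a log2 fold change of -0.52 (standard error 0.09, edgeR, adjusted p = 5.2e-05). Erythroid transcripts, which include those of dividing precursors, were also higher at E21, and their part in the cell cycle values was not tested. In Tg nerve the log2 fold change of Mki67 over the same step was -1.69.

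The inhibitors of cyclin-dependent kinases diverged, with 2 of 5 tested higher and 3 lower. Cdkn1b (p27) had 105, 107, 103 and 88.6 at E21 and 475, 397, 479 and 422 at P6, a log2 fold change of 2.14 (standard error 0.11, edgeR, adjusted p = 2.9e-13). Cdkn1c (p57), an imprinted gene, had 249, 325, 239 and 324 and then 49.8, 57.2, 76.4 and 69.8, a log2 fold change of -2.17 (standard error 0.15, edgeR, adjusted p = 3.0e-11). Every library held to this order in both genes. Cdkn2b rose by 1.22 and Cdkn2c changed by -1.08. Cdkn1a (p21) had 5.89, 9.09, 5.13 and 20.5 at E21 and 2.26, 2.49, 2.50 and 2.46 at P6, a log2 fold change of -2.07 (standard error 0.47, edgeR, adjusted p = 7.3e-04). Its highest E21 value was in replicate 4, a library with muscle transcripts, and without E21 replicates 2 and 4 it was no longer called.

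Imprinted and fetal growth genes were also lower throughout, in 13 of 13 tested, 11 past 2-fold, with a median log2 fold change of -1.69. Igf2, the fetal growth factor, had 3031, 3125, 2982 and 3381 at E21 and 1096, 1135, 1088 and 1087 at P6, a log2 fold change of -1.51 (standard error 0.10, edgeR, adjusted p = 1.5e-11). Mest had 368, 371, 390.3 and 406 and then 85.2, 89.9, 76.4 and 90.0, a log2 fold change of -2.17 (standard error 0.09, edgeR, adjusted p = 2.4e-15). Dlk1, Grb10 and Peg3 changed by -2.10, -1.93 and -1.20. Hmga2, a chromatin protein of fetal tissue, had 35, 29, 18 and 39 counts at E21 and 1, 7, 5 and 5 at P6, a log2 fold change of -2.68 (edgeR, adjusted p = 3.6e-07). The fetal RNA-binding proteins Igf2bp1 and Igf2bp2 changed by -2.43 and -0.39.

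Genes whose mutations cause inherited demyelinating neuropathy rose in 17 of 18 cases, 9 of them past 2-fold, with 0 lower and a median log2 fold change of 1.14. The list shares, among others, Pmp22, Pmp2, Egr2, Gjb1 and Prx with the lists above. Of the others, Ndrg1 had 171, 147, 151 and 153 at E21 and 1023, 1070.2, 979 and 916 at P6, a log2 fold change of 2.68 (standard error 0.10, edgeR, adjusted p = 6.2e-16). Sh3tc2, a protein of endosome recycling, rose by 1.35 (edgeR, adjusted p = 5.1e-13), Fig4, a phosphoinositide phosphatase, by 1.22, Sbf2 and its partner Mtmr2 by 1.06 and 0.61 and Litaf by 0.44. The gene without a call was Ctdp1, at 0.13, and the calls of Hk1 (0.18) and Surf1 (0.24) were lost with total counts only and without E21 replicate 4.

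Several of the genes with the highest fold changes were outside these lists. Slc36a2, an amino acid transporter, had 3, 4, 0 and 3 counts in the E21 libraries and 145, 168, 120.0 and 112 normalized CPM at P6. Kcna1, a potassium channel of the juxtaparanode, had 0, 1, 0 and 1 counts at E21 and 296, 609, 224 and 409 at P6, and Rasgef1a had 0, 1, 0 and 1 and 665, 1240, 553 and 558. These genes were near 0 in every E21 library. Lect1 (chondromodulin) rose from 0.280 ± 0.149 to 83.3 ± 14.4, a log2 fold change of 8.10 (edgeR, adjusted p = 1.4e-18), and continued to 537 ± 61.4 at P18 (SD, n = 4 each). Ddn (dendrin), Cpeb1, Magi2 and Sptbn5 rose by 7.91, 6.88, 6.69 and 6.53. Mrap, the melanocortin receptor partner, had 0.266, 0.0590, 0.361 and 0.183 at E21 and 92.2, 67.5, 57.6 and 161 at P6, a log2 fold change of 8.78 (edgeR, adjusted p = 6.4e-14), and was highest in P6 replicate 4. Adipocyte markers were highest in that library too, and their part in the Mrap value was not tested.

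Of the genes that fell furthest outside blood and muscle, Crabp1, a retinoic acid-binding protein, had 117, 93.2, 95.3 and 86.4 at E21 and 1.48, 1.10, 1.21 and 1.03 at P6, a log2 fold change of -6.37 (standard error 0.20, edgeR, adjusted p = 2.2e-17). Ppp1r1c had 30.4, 30.8, 32.1 and 25.1 and then 1.17, 1.18, 1.06 and 0.944, a log2 fold change of -4.76 (standard error 0.23, edgeR, adjusted p = 5.2e-14), and Cbln2 changed by -3.83 (edgeR, adjusted p = 1.9e-11). All 3 were low in every P6 library. Mmrn1 had 12.3, 9.68, 47.8 and 20.8 at E21 and 1.95, 1.22, 0.834 and 0.615 at P6. Its log2 fold change was -4.33 (standard error 0.70, edgeR, adjusted p = 1.7e-05). Ahsp, which is counted among the erythroid markers, changed by -3.69, and Kel and Fam46c changed by -4.02 and -3.62. These genes were higher in E21 replicates 1 and 2 than in 3 and 4, as was the erythroid sum. For 3 other genes, known only by a provisional name, whether reads are shared with similar copies was not tested: LOC100360791 had 0.372, 0, 0 and 0 at E21 and 155, 176, 86.3 and 166 at P6, LOC100360573 had 101, 80.7, 101 and 96.6 and then 0.856, 5.80, 0 and 0, and AC098563.1 had 56.1, 60.2, 13.1 and 38.8 and then 0.0778, 8.61, 0 and 4.23. The mean of LOC100360791 in Wt nerve at P18 was again 0, and its log2 fold change from E21 to P6 in Tg nerve was 14.6. Why it was near absent at the ages other than P6 was not tested.

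Globin and other erythroid genes were lower at P6 in 13 of 14 tested, 12 past 2-fold, with a median log2 fold change of -3.13. Hbb had 26017, 20194, 7802 and 10049 at E21 and 954, 1048, 658 and 1130.2 at P6, a log2 fold change of -4.08 (standard error 0.75, edgeR, adjusted p = 7.1e-05). The lowest E21 library still lay well above every P6 library, and the E21 libraries differed more than 3-fold among themselves. The embryonic and fetal-type globin genes had no count at P6: Hbe1 had 448, 419, 145 and 246 counts at E21 and 0 in each P6 library, at least 424-fold lower, and Hbg1 had 139, 102, 54 and 66 and 0, at least 123-fold lower, each against a floor of 3 counts over the 4 P6 libraries. Hba-a2 and Hba-a3, near-identical copies whose reads cannot be assigned with certainty, changed by -4.09 and -3.79. Alas2, the first enzyme of heme synthesis in red cells, and the factor Gata1 changed by -3.23 and -3.48.

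Skeletal muscle markers were lower at P6 in 15 of 23 tested with 0 higher and a median log2 fold change of -3.56, but only 1 of the 23 did not overlap between the ages. Acta1, skeletal alpha-actin, had 1.81, 432, 5.06 and 642 at E21 and 59.4, 28.6, 8.04 and 6.36 at P6, a log2 fold change of -3.43 (standard error 1.64, edgeR, adjusted p = 0.08). Ckm, the muscle creatine kinase, had 0.425, 82.3, 0.506 and 139 and then 8.17, 4.49, 2.05 and 0.985, a log2 fold change of -3.88 (standard error 1.70, edgeR, adjusted p = 0.057). Neither was called, and in both the P6 libraries lay above E21 replicates 1 and 3 and below E21 replicates 2 and 4. Without E21 replicates 2 and 4, a setting added after the data were seen, 0 of the muscle markers were lower, 1 was higher and their median log2 fold change was 1.30. The 1 gene called in opposite directions by the 2 fits was Myh7, the slow muscle myosin, with -2.27 over all libraries and 2.30 without these 2. Among all genes, 3654 of the 4448 higher calls (82.1%) and 3676 of the 4511 lower calls (81.5%) were also made without them.

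Adipocyte markers were higher at P6 in 8 of 9 tested, 6 past 2-fold, with a median log2 fold change of 4.40. Plin1, the lipid droplet coat protein, had 0.0531, 1.06, 0 and 0.219 at E21 and 24.7, 12.9, 17.1 and 64.5 at P6, a log2 fold change of 6.49 (standard error 0.78, edgeR, adjusted p = 2.8e-07). Pck1 changed by 6.62 and Cidec by 5.91, whereas Adipoq had 9.40, 16.0, 11.1 and 8.88 and then 68.9, 37.6, 50.2 and 132, a log2 fold change of 2.68 (edgeR, adjusted p = 5.7e-06). Replicate 4 was the highest P6 library in each of these genes. Without it the median of the list was 3.44, and without E21 replicates 2 and 4 it was 6.43.

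Of the immune cells, mast cells gave the clearest change, with 6 of 7 tested markers higher, 5 past 2-fold, 0 lower and a median log2 fold change of 2.18. The proteases Tpsb2, Cma1 and Cpa3 rose by 3.28 (edgeR, adjusted p = 3.2e-07), 2.51 and 2.18. Cma1 had 8.97, 21.7, 10.7 and 13.2 at E21 and 65.8, 72.8, 64.5 and 106 at P6, so that the ages did not overlap. Of 13 macrophage markers tested, 3 were higher and 4 lower, shares near those over all genes, and 2 were lower without both E21 libraries with muscle transcripts. Cd163 had 17.5, 22.2, 18.6 and 19.9 and then 8.40, 7.92, 4.78 and 7.26, a log2 fold change of -1.46 (standard error 0.19, edgeR, adjusted p = 8.1e-07), while Adgre1 (F4/80) rose by 0.92 (edgeR, adjusted p = 2.1e-04) and Cx3cr1 by 0.93. Antigen presentation genes had 3 of 11 called higher and 0 lower, and the number higher ran from 1 to 5 when single libraries were left out.

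Matrix and vessel genes fell more often than they rose. Of 24 collagens and other matrix genes, 2 were higher and 10 lower, with a median log2 fold change of -0.21. Col28a1, a collagen of peripheral nerve glia, had 8.39, 4.13, 6.94 and 8.44 at E21 and 284, 215, 257 and 229 at P6, a log2 fold change of 5.12 (standard error 0.22, edgeR, adjusted p = 7.2e-15). Tnc, tenascin-C, had 578, 522, 567 and 579 and then 148, 148, 162 and 171, a log2 fold change of -1.84 (standard error 0.12, edgeR, adjusted p = 1.4e-11). Postn and Fn1 changed by -0.80 and -0.51, and Sparc rose by 0.54. The fibrillar collagens Col1a1 and Col3a1, at 0.05 and 0.14, were not called. Endothelial and pericyte markers were lower in 7 of 13 and higher in 1, with -0.93 for the angiopoietin receptor gene Tek and -0.52 for Cdh5. Perineurial markers were higher in 4 of 6 and lower in 1: Slc2a1, the glucose transporter of the nerve barrier, and Tjp1 rose by 0.69 and 0.72, and Cldn1 changed by -0.54. Fibroblast markers were higher in 1 of 9 and lower in 5.

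Transcripts of neurons were mixed, with 2 of 10 tested higher and 4 lower. The neurofilament genes Nefl and Nefm rose, Nefl from 26.6, 33.2, 26.4 and 29.1 to 143, 146, 98.7 and 113, a log2 fold change of 2.12 (standard error 0.24, edgeR, adjusted p = 1.3e-07), and Nefm by 2.53 (edgeR, adjusted p = 1.6e-09). At P18 they were at 16.0 ± 5.42 and 12.7 ± 1.35 (SD, n = 4 each), below their P6 levels. Isl1, Stmn2 and Prph changed by -2.82, -1.27 and -1.02. Of 9 immediate early genes, 3 were higher and 4 lower, with 1.96 for Fosl1 and -1.61 for Atf3.

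The same step in Tg nerve was measured in 8 other libraries, which share none with the Wt comparison. There 8647 genes were called (54.2%), 4221 higher at P6 (26.5%) and 4426 lower (27.7%). The list medians in Tg were 3.77 for compact myelin, 2.74 for junctions, 1.53 for cholesterol synthesis and -1.78 for the cell cycle, with 6 of 6, 18 of 22 and 20 of 21 genes higher and 31 of 31 lower. The adipocyte median was 6.83 in Tg against 4.40 in Wt, with 8 of 9 genes higher in each. Of 11 antigen presentation genes, 3 were higher and 0 lower in Wt, and 0 were higher and 5 lower in Tg, with medians of 0.20 and 0.14, and the difference between these counts was not tested. For single genes the log2 fold changes in Tg were 4.31 for Mbp, 4.40 for Egr2, 2.32 for Hmgcs1 and 3.25 for Ugt8. In the test of the difference between the 2 steps, 0 genes were called by edgeR after adjustment, 854 had an unadjusted p under 0.05 (5.35%), and DESeq2 called 35. Leaving out P6 Wt replicate 4 gave 2 calls in edgeR.

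From P6 to P18 in Wt nerve 6666 genes were called (41.8%), 3269 higher (20.5%) and 3397 lower (21.3%), and this step shares the P6 libraries with the one described here, so the values are set side by side without a test. The median log2 fold change from P6 to P18 was 0.78 for compact myelin, 0.27 for cholesterol synthesis and -1.73 for the cell cycle. Pmp22 went on by 0.98, Hmgcs1 by 0.57, Ugt8 by 0.93 and Mki67 by -1.94. For Pou3f2, Mag and Gjc3 the later values were -1.24, -0.42 and -1.57, against 1.84, 3.94 and 2.58 from E21 to P6.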

How the data were processed

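RNA of whole sciatic nerve was sequenced by the authors as single-end 50 bp reads, which were aligned to the rat genome rn6 with Bowtie2 2.0.2 through RSEM 1.2.29 with Ensembl gene models. Base calls came from CASAVA 1.8.2 in the submitters' processing notes. The deposited values are RSEM expected counts for each gene, with no scaling and no filter, in which the authors' counting divides a read among the genes it fits. All 24 columns were mapped by their names to the sample titles, and 0 columns were unused.

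Expected counts were rounded, and the 15951 of 32402 genes whose normalized counts averaged 5 or more were tested in edgeR 4.0.16 under R 4.3.3, with TMM factors, the quasi-likelihood F test, 1 model of 6 groups over 24 libraries and Benjamini-Hochberg adjustment over all tested genes at a threshold of 0.05. The same fit gave the test against a 2-fold change. Counts were also simulated with equal Wt means at E21 and P6, apart from 200 genes changed by 1.5- to 8-fold. The edgeR test recovered 161 of these 200 genes, with 29 of 50 at 1.5-fold, and made 4 false calls over 15845 genes. DESeq2 1.42.0 recovered 165 and made 21 over 15811. In the data far more genes were called, 8959 of 15951, and some libraries held muscle or erythroid transcripts. The simulation therefore gives no error rate for the real step. Depth limits mainly genes with few counts, and intervals of counts cover sampling of reads only.

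Members and gene lists were chosen with earlier results of these data known. Genes were named by a rule: the 4 markers, up to 4 rises and 4 falls per list without overlap, the 15 largest rises and falls over all genes with a mean of at least 100 counts, and a few fixed names. Other genes of the lists were named after their values were seen. Of 457 list entries, 17 were not matched and were not analysed here, and a few named genes are not reported here. All replicate pairs differed by more than sampling noise (chi-square per degree of freedom, 7.29 to 53.7). Alternatives were DESeq2, fits to the Wt libraries, other scaling factors, other filters on low counts, a replicate block and leaving out libraries. Promoter sequences came from RefSeq GRCr8. Figures were drawn with matplotlib 3.10.9.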

Additional observations from a re-analysis of the deposited data

Results flagged for a closer look

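Among 452 sets of 4 libraries, 1 set for each gene named and age, 19 (4.20%) had a library that lay far from the other 3 by Dixon's test, and chance gives about 1 in 20. Values are normalized CPM. P6 replicate 1 lay below the other P6 libraries, with 13.2 for Pou3f2 (others 16.8 to 17.3), 9.18 for Egr3 (others 14.2 to 15.2), 18.3 for Etnk2 (others 22.1 to 22.8), 2.26 for Cdkn1a (others 2.46 to 2.50) and 21.1 for Atf3 (others 25.0 to 25.4). It lay above them in Myh3, with 23.1 for Myh3 (others 0.451 to 3.51). This library is also the one without counts of the Y-linked gene Eif2s3y, and the part of that difference in these values was not tested. P6 replicate 4 lay below the others, with 31.9 for Yap1 (others 35.1 to 35.4) and 10.8 for Fosl1 (others 12.7). It lay above them with 39.7 for Chka (others 36.5 to 36.8) and 12.8 for Cidec (others 2.94 to 4.05). It held the highest sum of adipocyte markers, among which Cidec is counted. P6 replicate 2 lay above the others, with 5.80 for LOC100360573 (others 0 to 0.856) and 8049.7 for Sparc (others 6995 to 7073). At E21, replicate 3 lay above the others, with 221 for Msmo1 (others 195 to 199) and 36.9 for Chka (others 32.9 to 33.2). It lay below them with 60.0 for Atf3 (others 77.2 to 80.7). E21 replicate 4 lay below the others, with 7.63 for Tead1 (others 9.26 to 9.32). It lay above them with 105 for Tnnt1 (others 0.690 to 16.8). It is a library with muscle transcripts, and Tnnt1 is a muscle gene. E21 replicate 2 lay above the others, with 0.295 for Pck1 (others 0.0723 to 0.110). E21 replicate 1 did so, with 0.372 for LOC100360791 (others 0). These values rest on 5 and 7 counts. Chka, which had a library apart at both ages, was not called, and each other gene was called higher or lower at P6.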

How the results depend on the processing

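The counts of genes called over the whole step held within 1.5 times in all alternatives run. Without single libraries, 3805 to 4477 genes were higher and 4037 to 4776 lower. DESeq2 gave 4537 and 4696, and total counts only gave 3743 and 5290, with 41.4% of the calls higher against 49.6% with TMM. Without P6 replicate 1, the library with no Eif2s3y counts, 4477 were higher and 4149 lower. The difference between the Tg and the Wt step gave 35 genes in DESeq2 and 0 to 2 in edgeR without single Wt libraries, against 0 in the main analysis, and the cause was not tested. Of 226 genes examined, 213 were called, and 20 of these lost the call in at least 1 alternative. Without both E21 libraries with muscle transcripts, Myh3 turned to 2.28 and Actc1 to 0.55 on the log2 scale (edgeR, Benjamini-Hochberg adjusted p = 0.449 and 0.866), from -5.41 and -6.71. In that setting 3742 genes were higher and 3713 lower, with fewer libraries in the fit, and macrophage markers called lower went from 4 to 2. Muscle markers called lower went from 15 to 4 without E21 replicate 4, to 8 without E21 replicate 2 and to 6 or 7 without P6 replicate 2, 3 or 4. The replicate numbers did not pair the samples: same-numbered E21 and P6 libraries had correlations of their deviations of -0.30, 0.04, -0.01 and -0.09. With a replicate block 4447 genes were higher and 4469 lower, 858 and 569 past 2-fold, 0 differed between the steps of Tg and Wt, and 6 muscle markers were lower. Depth limits the genes with few counts at E21, such as Ncmap, Kcna1 and Slc36a2, whose fold changes rest on a handful of counts.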
